A study of Mus musculus with 6 samples.

Results

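The 10 genes described here are a list of activity-induced immediate early genes, taken from the 55341 gene symbols of a poly(A) RNA-seq experiment on cultured mouse cerebellar granule neurons (CGNs). The list holds the 4 Egr genes, the AP-1 genes Fos, Fosb and Junb, the factors Npas4 and Nr4a1, and the synaptic gene Arc. The list was chosen by measured values of the treatment comparison, in which Egr4 had stood out, and the other genes were set beside it. The treatment values of these genes are therefore a description and carry no test. All 10 genes had a row in every table, 9 had at least 1 count, and 8 passed the filter on low counts.

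The CGNs of 3 libraries had received the vehicle DMSO and those of 3 libraries GSK-126, a small-molecule inhibitor of EZH2. EZH2 is the enzyme of Polycomb repressive complex 2 that places trimethylation on lysine 27 of histone H3, a mark of repressed promoters. By the study's methods the neurons were grown from precursors of early postnatal CD1-IGS mice, purified on a Percoll gradient, and each replicate was a culture from pooled cerebella of litters. CGN cultures received cytosine arabinoside against dividing cells, inhibitors were added once, on the first or the third day, and cells were harvested on the fifth. No stimulus to raise activity is named. The labels gave the agent and the replicate number, but neither the concentration nor the day of addition. The same replicate number in the 2 groups was taken to mark a pair.

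Immediate early genes are transcribed within minutes of a stimulus, without the need for new protein. In neurons, calcium entry through NMDA receptors and voltage-gated channels activates kinases that act on factors already bound at these promoters, among them CREB, SRF and MEF2. Most of the products are transcription factors that switch on later genes, whereas Arc acts at synapses. Their transcripts are short-lived, so that their level in a culture follows its recent activity and handling.

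Totals over genes ran from 8058760 to 12047837 counts per library, of which the 10 genes received 1125 to 2298. Across 16343 genes tested with edgeR, treatment alone gave 0 genes higher and 0 lower (0% and 0%) at an adjusted p-value under 0.05, against 981 genes at an unadjusted p under 0.05. DESeq2 on the same model gave 46 higher and 13 lower, and limma-voom gave 0 of either. With the replicate number as a block, edgeR gave 365 genes higher (2.23%) and 232 lower (1.42%). Marker genes showed a mixed culture. The summed level of 6 granule neuron markers was 3007 to 4152 CPM (gene counts divided by the TMM-scaled size of the library and put on one scale) with DMSO and 2201 to 3184 with GSK-126, and all 6 had counts. The 5 fibroblast markers summed to 6678 to 8743 CPM and 8776 to 9723 CPM, above the granule neuron markers in all 6 libraries. The sums are over different genes and do not give the shares of cells.

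The promoters of Egr4, of Fos, whose level differed in the other direction, and of Junb, another AP-1 gene, are shown first, because calcium reaches many of these genes through the cyclic AMP response element (CRE) bound by CREB. The windows are the 250 bases before the RefSeq start on GRCm38, in the direction of the gene, and capitals mark the CRE core, TGACG or its reverse complement CGTCA. They lie at chr6:85513590-85513839 (minus strand) for Egr4, chr12:85473640-85473889 (plus strand) for Fos and chr8:84978749-84978998 (minus strand) for Junb.
Egr4: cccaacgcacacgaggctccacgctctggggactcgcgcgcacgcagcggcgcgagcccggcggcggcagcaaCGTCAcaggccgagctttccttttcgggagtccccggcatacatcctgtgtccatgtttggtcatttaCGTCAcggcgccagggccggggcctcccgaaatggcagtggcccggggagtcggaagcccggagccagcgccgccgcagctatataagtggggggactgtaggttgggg
Fos: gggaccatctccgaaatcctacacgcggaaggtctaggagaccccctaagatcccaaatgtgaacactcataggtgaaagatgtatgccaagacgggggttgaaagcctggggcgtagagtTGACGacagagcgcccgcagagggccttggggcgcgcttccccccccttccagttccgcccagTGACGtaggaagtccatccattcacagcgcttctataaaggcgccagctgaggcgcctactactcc
Junb: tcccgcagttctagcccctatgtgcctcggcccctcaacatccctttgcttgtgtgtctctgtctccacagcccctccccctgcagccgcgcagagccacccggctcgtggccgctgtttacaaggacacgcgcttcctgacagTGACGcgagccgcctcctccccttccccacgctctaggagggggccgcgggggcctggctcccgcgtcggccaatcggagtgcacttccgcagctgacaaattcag

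Egr4 held the core at bases -177 to -173 and at -109 to -105 from the start, Fos at -129 to -125 and -66 to -62, and Junb at -106 to -102. RefSeq windows were found for 7 of the 10 genes (all but Egr1, Egr3 and Arc), with 1 window each except Egr2, which had 5. The core was in the window of each of the other 6 genes and in 3 of the 5 Egr2 windows, and 17.8% of 32851 promoter windows of the same length held it. The full site TGACGTCA was in no window of the 7 genes and in 1.55% of all windows, and the AP-1 site TGANTCA was in none of them and in 6.75%. The EGR site GCGNGGGCG was in the windows of Fosb and Nr4a1 (4.7% of all windows). A CArG box, the site of SRF, was in 4 of the 5 Egr2 windows (1.47% of all windows). The 3 Egr2 windows with the core overlap and share the same core sites and the same CArG box, so these are not separate finds. Both strands were searched, and the core is part of the full site. Within these windows, Egr4 and Fos thus both held the core and had no match to the other motifs searched. Sequence outside the windows was not searched, so sites further upstream could not be seen. Whether promoter sites play a part in the opposite differences of Egr4 and Fos was not tested.

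Egr4 encodes a zinc finger transcription factor and lies on chromosome 6 at 85511121 to 85513589, minus strand. It had 83, 241 and 57 counts in DMSO replicates 1, 2 and 3 and 12, 14 and 5 in the GSK-126 replicates. These were 9.55, 30.0 and 6.72 CPM against 0.997, 1.68 and 0.568 CPM. The groups were wide apart, and the lowest DMSO library was 3.99 times the highest GSK-126 library. The mean fell from 15.4 ± 12.7 to 1.08 ± 0.562 CPM (SD, n = 3). The fitted log2 fold change was -3.83 (SE 0.667) with treatment alone and -3.69 (SE 0.315) with the block, which is 12.9-fold lower. Much of the spread with DMSO was replicate 2, and without it the log2 fold change was -2.89. Within the pairs the log2 ratio of GSK-126 to DMSO was -3.00, -3.99 and -3.14.

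**Figure D1:**
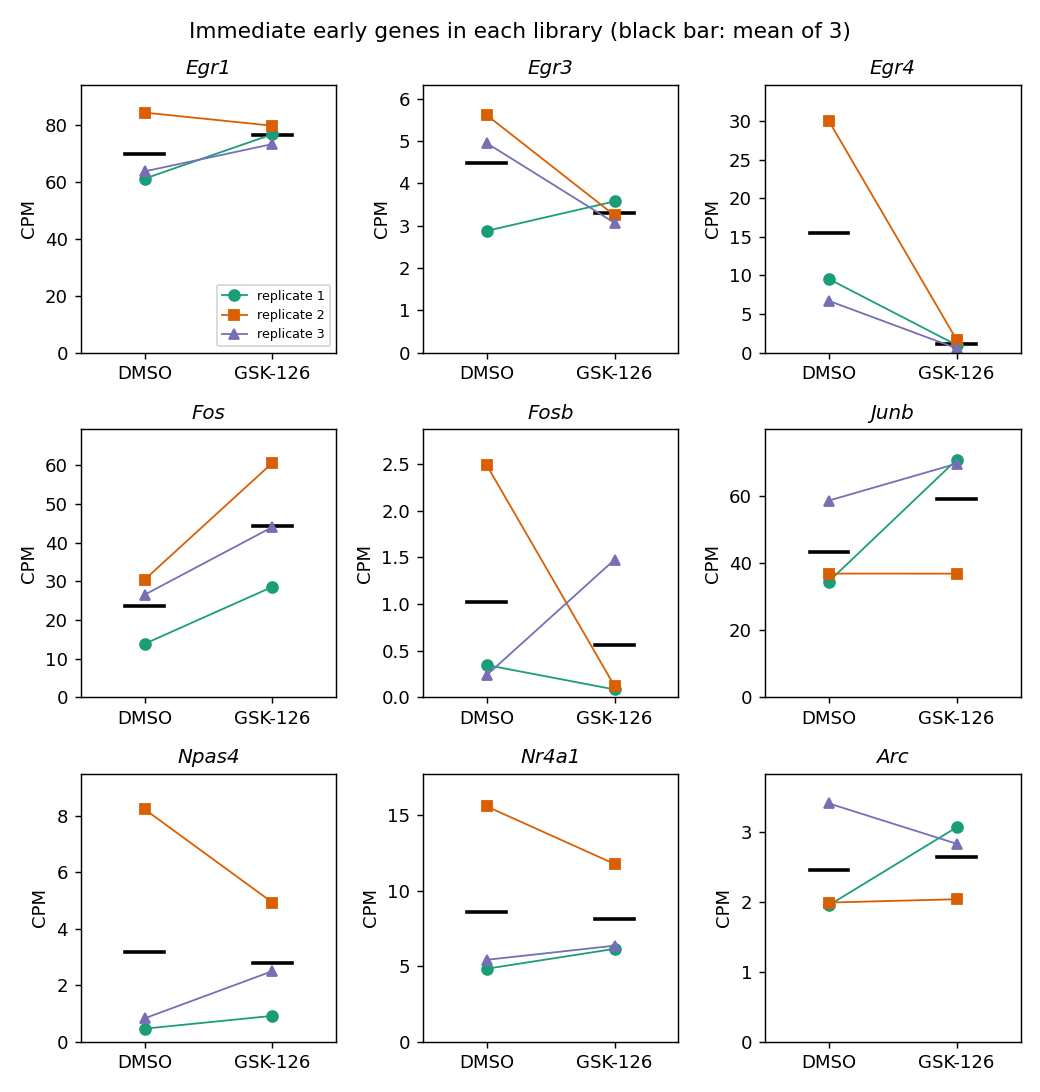
CPM (vertical axes, from 0, a different scale in each panel) of the 9 genes with counts, by treatment. Points are libraries, lines join libraries of the same replicate number, and black bars are means of 3. Egr4 ran from 6.72 to 30.0 CPM with DMSO and from 0.568 to 1.68 with GSK-126, and it was the only panel in which the groups did not overlap.

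The other Egr genes did not share this pattern. Egr1, the best known of the family and a common marker of neuronal activity (chromosome 18, 34859823 to 34864984), stood at 61.1, 84.3 and 63.6 CPM under DMSO against 76.7, 79.7 and 73.2 under GSK-126. The 3 GSK-126 libraries fell inside the DMSO range, and the fitted log2 fold change was 0.14 (SE 0.152). Egr3, which acts downstream of calcium and in long-lasting responses (chromosome 14, 70077203 to 70082614), was at 2.88, 5.61 and 4.95 CPM with DMSO and 3.57, 3.24 and 3.07 with GSK-126. It was lower with GSK-126 in pairs 2 and 3 and higher in pair 1, with a log2 fold change of -0.44 (SE 0.358). Egr2, known for myelination and hindbrain patterning (chromosome 10, 67535475 to 67542188), had 0 counts in all 6 libraries, where 3 counts would correspond to 0.249 to 0.374 CPM.

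Because Egr4 and its relatives were read in the same libraries, their counts can be set against each other without any scaling. Per 100 Egr1 counts there were 15.6, 35.7 and 10.6 Egr4 counts under DMSO against 1.30, 2.11 and 0.775 under GSK-126. Per 100 Egr3 counts there were 332, 536 and 136 Egr4 counts against 27.9, 51.9 and 18.5. In counts, Egr4 therefore exceeded Egr3 in every DMSO library and fell below it in every GSK-126 library. These counts are not corrected for length, and Egr3 has 4.406 kilobases (kb) of exon against 2.148 for Egr4. Per kb, Egr4 was below Egr3 in GSK-126 replicates 1 and 3 but above it in replicate 2 (0.783 against 0.736 CPM per kb).

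Egr4 made up 7.38%, 13.9% and 3.94% of the counts of the 10 genes with DMSO. The 95% exact (Clopper-Pearson) intervals were 5.92 to 9.06, 12.3 to 15.7 and 3.00 to 5.08. With GSK-126 the share was 0.522%, 0.837% and 0.279%, with intervals of 0.270 to 0.910, 0.458 to 1.40 and 0.0905 to 0.649. No interval of a DMSO library reached one of a GSK-126 library, although these intervals cover counting error only. Because Egr4 was chosen by this contrast, their separation is a description and no test.

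**Figure D2:**
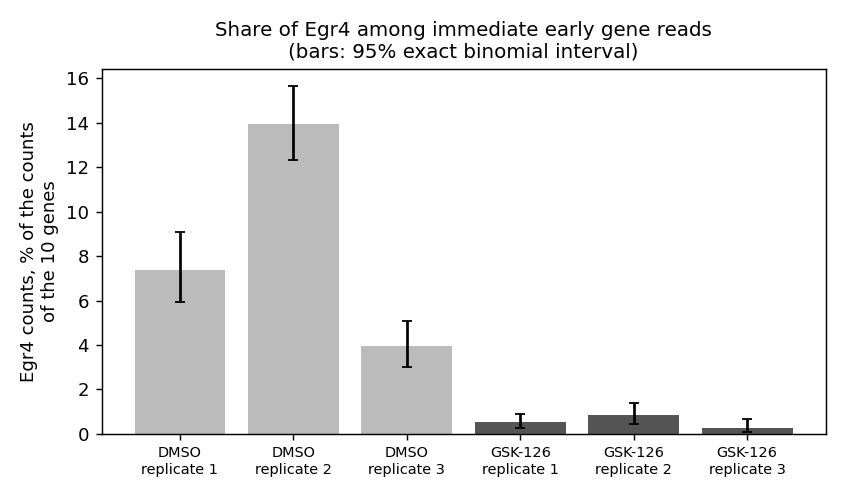
Egr4 counts as a percent of the counts of all 10 genes (vertical axis) in each library, with bars from 0 and error bars of the 95% exact binomial interval. The share was 3.94% to 13.9% in the DMSO libraries and 0.279% to 0.837% in the GSK-126 libraries.

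Fos, the AP-1 subunit that pairs with Jun proteins (chromosome 12, 85473890 to 85477273, plus strand), differed the other way. Its counts were 120, 244 and 225 under DMSO against 344, 505 and 388 under GSK-126, or 13.8, 30.4 and 26.5 CPM against 28.6, 60.7 and 44.1 CPM. Each GSK-126 library was above its own pair, but GSK-126 replicate 1 lay below DMSO replicate 2, so the groups overlapped. The mean was 23.6 ± 8.69 CPM and 44.4 ± 16.1 CPM (SD, n = 3), and the log2 fold change was 0.91 (SE 0.343) with treatment alone. The block gave 0.92 (SE 0.142), or 1.90-fold. The log2 ratios within pairs were 1.04, 0.99 and 0.73. Set against Egr4, the log2 ratio of Egr4 to Fos differed by -4.31, -5.15 and -4.30 in the pairs (GSK-126 minus DMSO).

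The other AP-1 genes were less even. Junb, a Jun protein often induced together with Fos (chromosome 8, 84974484 to 84978718, minus strand), stood at 34.5, 36.9 and 58.7 CPM under DMSO against 70.9, 36.9 and 69.7 under GSK-126. The gain was in pairs 1 and 3, and pair 2 had the same level in both libraries. The log2 fold change was 0.45 (SE 0.290). Of its exons 7.52% overlap Prdx2 on the other strand, and whether the count used strand is not stated in the sources used here. Fosb, whose protein products build up with repeated stimulation (chromosome 7, 19302696 to 19310051), was read 3, 20 and 2 times under DMSO against 1, 1 and 13 times under GSK-126. It failed the filter on low counts, and its counts came mostly from 1 library in each group.

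Npas4, a neuronal factor induced by calcium and known for setting inhibitory synapses (chromosome 19, 4984355 to 4990316), was read 4, 66 and 7 times under DMSO against 11, 41 and 22 times under GSK-126. Replicate 2 was the highest library in both groups. At 0.460, 8.23 and 0.825 CPM against 0.914, 4.93 and 2.50 CPM, it had a log2 fold change of -0.20 (SE 1.00), which was 0.33 (SE 0.525) with the block. Leaving out DMSO replicate 2 gave 2.08, so its direction rested on that library. Nr4a1, an orphan nuclear receptor (chromosome 15, 101254269 to 101274795), was at 4.83, 15.6 and 5.42 CPM with DMSO and 6.15, 11.8 and 6.36 with GSK-126. Its log2 fold change was -0.09 (SE 0.490), and 0.66 without DMSO replicate 2. Arc, a synaptic protein that promotes removal of AMPA receptors (chromosome 15, 74669083 to 74672570), was at 1.96, 1.99 and 3.42 CPM and at 3.07, 2.04 and 2.84 CPM, with a log2 fold change of 0.12 (SE 0.411). For these 3 genes the groups overlapped and the SE exceeded the difference in the fit with treatment alone.

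**Figure D3:**
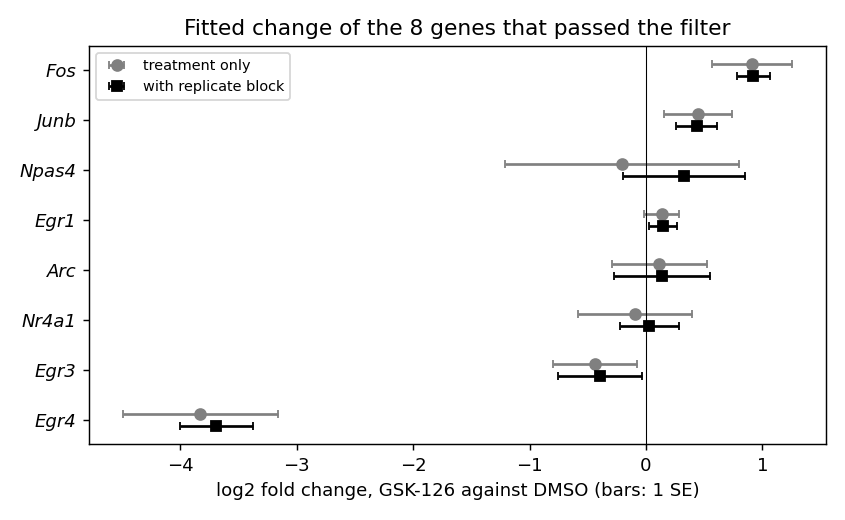
Log2 fold change, GSK-126 against DMSO (horizontal axis), of the 8 genes that passed the filter, with bars of 1 SE. Grey circles are the fit with treatment alone and black squares the fit with the replicate block. Egr4 is at -3.83 and -3.69, Fos at 0.91 and 0.92, and the other 6 genes lie between -0.44 and 0.45.

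Counted together, 1 of the 8 tested genes was higher (Fos) and 1 lower (Egr4) past the threshold with the block, where 2.23% and 1.42% of all genes were, and 0 were with treatment alone. Only Egr4 had groups that did not overlap, as 5.44% of all tested genes did in the lower direction and 5.43% in the higher. Egr4 was lower and Fos was higher in 3 of 3 pairs, which held for 19.3% and 19.7% of all genes. These counts use the contrast by which the list was made. The median log2 fold change of the 8 genes was 0.01 with treatment alone and 0.14 with the block, against -0.00 over all genes in both fits. Its sign was not stable, since it ran from -0.20 to 0.33 with 1 library left out.

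The order of the genes by level was compared per kilobase of exon, as CPM per kb. With DMSO it was Junb (18.8 ± 5.79), Egr1 (15.5 ± 2.84), Fos (10.02 ± 3.69), Egr4 (7.19 ± 5.93), Nr4a1 (2.45 ± 1.72), Egr3 (1.02 ± 0.324), Arc (0.803 ± 0.272), Npas4 (0.767 ± 1.06), Fosb (0.164 ± 0.204) and Egr2 (0). Of neighbours in this order above Egr2, only Egr1 and Fos, and Nr4a1 and Egr3, had ranges over the 3 libraries that did not overlap. With GSK-126, Egr4 stood eighth at 0.504 ± 0.262 CPM per kb, between Npas4 (0.672 ± 0.489) and Fosb (0.0897 ± 0.127). Its range there, 0.264 to 0.783, overlapped that of Npas4 and, on the low side, stopped just above that of Fosb. Fos moved ahead of Egr1, at 18.9 ± 6.83 against 17.1 ± 0.717 CPM per kb, but their ranges overlapped. By mean level per kb, Egr4 was thus among the 4 most abundant of these transcripts in vehicle-treated CGNs, and with GSK-126 Fosb and the undetected Egr2 alone were lower.

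A measure that the choice of genes did not use was the difference between replicate numbers across both treatments. The sources used here do not state whether the same number in both groups came from the same litter pool. By edgeR's quasi-likelihood F test with treatment in the model, 4 of the 8 genes differed between numbers, against 11.6% of all genes tested. They were Fos (adjusted p 0.00504), Egr4 (adjusted p 0.00790), Npas4 (adjusted p 0.0134) and Nr4a1 (adjusted p 0.0212). Junb (0.0882), Egr1 (0.394), Arc (0.701) and Egr3 (0.828) did not pass. Without the filter on low counts Junb also passed (adjusted p 0.000748). With 6 libraries these p-values rest on 2 cultures per number. Npas4 failed the filter on low counts when both replicate 2 libraries, its highest, were left out. Its entry in the test thus depended on the level of replicate 2, which the test compares. Its place among the 4 genes is therefore no support for a difference between numbers.

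Replicate 2 had the highest CPM of its group for all 4 genes. The log2 CPM of replicate 2 was above the mean of its group by 2.22 (DMSO) and 1.03 (GSK-126) for Npas4. It was above by 1.25 and 0.64 for Egr4, 1.04 and 0.59 for Nr4a1, and 0.44 and 0.51 for Fos. For Fos, replicate 1 lay further from the group mean, at -0.69 (DMSO) and -0.57 (GSK-126). Counting-error intervals of Fos in replicates 2 and 3 overlapped with DMSO (26.7 to 34.5 and 23.2 to 30.2 CPM), but not with GSK-126. Egr4 with GSK-126 had 14 counts in replicate 2 against 12 and 5 in replicates 1 and 3. The intervals of these Egr4 counts overlapped, whereas with DMSO replicate 2 was apart. Junb and Arc were instead below their group mean in replicate 2, with deviations of -0.19 and -0.62 for Junb and -0.23 and -0.33 for Arc. Egr4 thus varied between cultures alongside Nr4a1 and Npas4, while by treatment its groups were apart and theirs overlapped. As a description over 6 libraries that share depth and culture, deviations from the group mean correlated by 0.96 between Npas4 and Nr4a1, 0.93 between Egr4 and Nr4a1, 0.91 between Egr1 and Egr4, and 0.94 between Arc and Junb. The correlation was also 0.94 between Egr1 and Nr4a1, and it was lower, at 0.81, between Egr4 and Npas4. It was -0.65 between Egr4 and Junb and -0.68 between Egr4 and Arc.

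**Figure D4:**
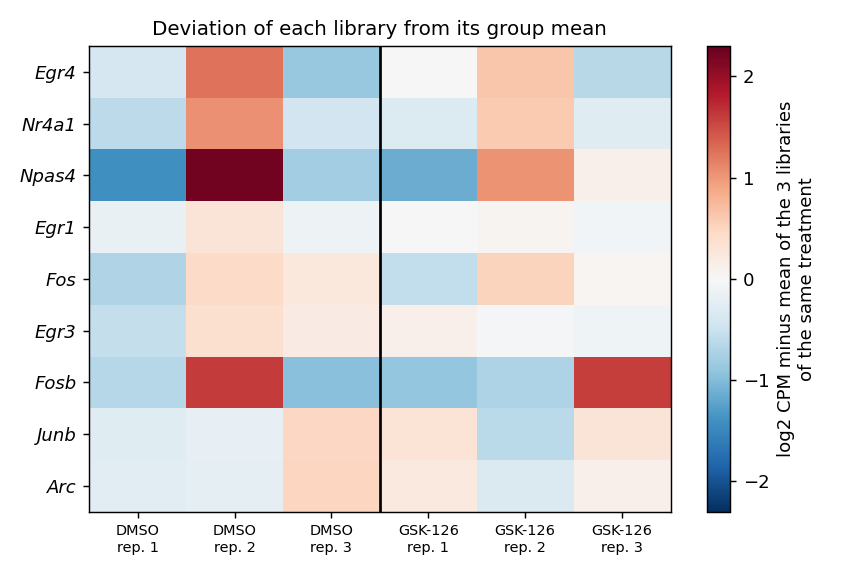
Deviation of log2 CPM (colour, red higher and blue lower) from the mean of the 3 libraries of the same treatment, for the 9 genes with counts (rows) in the 6 libraries (columns). Replicate 2 is red in both groups for Egr4, Nr4a1, Npas4 and Fos, with 2.22 for Npas4 in DMSO replicate 2, and blue in both for Junb and Arc.

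Cell type markers moved with both patterns. Between replicate numbers, 6 of 6 astrocyte markers differed by edgeR, against 11.6% of all genes tested. The astrocyte markers summed to 6607, 2032 and 3950 CPM with DMSO and 6861, 2093 and 3480 CPM with GSK-126. This sum was lowest in replicate 2, in which the granule neuron sum was highest. By treatment, the granule neuron sum was lower with GSK-126 in the 3 pairs, with log2 ratios of -0.45, -0.38 and -0.43. With the block 3 of its 6 genes were lower, against 1.42% of all genes tested. The log2 ratios of Egr4 per granule neuron marker CPM were -2.81, -3.78 and -3.14. The fibroblast sum was higher by 0.54, 0.37 and 0.15, and Fos per fibroblast marker CPM was higher by 0.51, 0.63 and 0.58. Other marker sums overlapped between the groups, as the granule neuron sums did, but moved one way in 3 of 3 pairs. In replicates 1, 2 and 3 the microglia sum was 357, 284 and 473 CPM under DMSO against 745, 339 and 569 under GSK-126. The endothelial and mural sum was 206, 171 and 245 against 279, 236 and 333 CPM, and the oligodendrocyte lineage sum 636, 416 and 666 against 788, 465 and 677 CPM. These were higher in each pair, and the sum of GABAergic neuron markers was lower in each, at 252, 187 and 235 against 190, 163 and 184 CPM. With the block, edgeR called 2 of 7 microglia, 2 of 6 tested endothelial and mural and 1 of 5 fibroblast markers higher, 1 of 6 GABAergic markers lower, and 0 astrocyte or oligodendrocyte lineage markers. Of all genes tested, 2.23% were called higher and 1.42% lower. The part of any of these cell types in the Egr4 and Fos values was not tested. Whether Fos was expressed in neurons or in other cells was not tested. In RNA from whole cultures, fewer cells of a type and less RNA per cell cannot be told apart.

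No tested relative outside the list was past the threshold with the block. Of the other Fos, Jun and Nr4a genes, Jun was at 167 ± 25.5 CPM under DMSO and 176 ± 2.39 under GSK-126 (SD, n = 3), and the block gave 0.08 (SE 0.112) on the log2 scale. Fosl1 (0.01, SE 0.241), Nr4a2 (-0.23, SE 0.226) and Nr4a3 (-0.01, SE 0.243) had block log2 fold changes within 1 SE of 0. Fosl2 was at 52.3 ± 14.5 and 69.4 ± 6.22 CPM and the block put its log2 difference at 0.44 (SE 0.131, adjusted p 0.106 by edgeR). Jund had 0 or 1 count per library, and 52.6% of its exons overlap an antisense gene. A list of other early response factors holds these and others such as Klf6 (93.8 ± 17.2 and 108 ± 11.7 CPM). Of its 18 tested genes, 0 were called higher and 0 lower with the block, and the list median was 0.08. However, 9 had an unadjusted p under 0.05 in that edgeR fit, against 2735 of all 16343 genes. The block log2 fold change was positive for 13 and negative for 5. Klf2 (0.86), Maff (0.83) and Csrnp1 (0.77) had all GSK-126 libraries above all DMSO libraries, as 5.43% of all genes did. Their edgeR adjusted p with the block was 0.0554, 0.0961 and 0.220.

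Feedback regulators, which shut the response down by dephosphorylating MAP kinases or binding EGR proteins, also had 0 of 16 called, with a median of 0.10. The most abundant were Spred1, an inhibitor of Ras signalling, with a block log2 fold change of 0.00 (SE 0.119), and Dusp5, a nuclear ERK phosphatase, at -0.44 (SE 0.109, edgeR adjusted p 0.0521). Of the upstream factors and coactivators 0 of 16 were called, with a median of -0.01. Mef2a was at 206 ± 6.66 and 223 ± 43.3 CPM, and Mef2d at 171 ± 32.2 and 134 ± 24.4 CPM (SD, n = 3). Of 8 heat shock genes, read as a sign of stress, 0 were called, and Hspa8 was at 800 ± 7.04 and 822 ± 51.9 CPM and Hspd1 at 206 ± 20.4 and 230 ± 7.09 CPM.

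Genes on a list of activity-induced effectors differed in both directions. With the block 4 of 16 were higher and 1 was lower, against 2.23% and 1.42% of all genes tested. The median was 0.46, against -0.00 over all genes. Ccn1, a secreted matrix protein, stood at 58.4, 114 and 106 CPM under DMSO against 142, 191 and 178 under GSK-126, with all GSK-126 libraries above all DMSO libraries. The block put its log2 difference at 0.92 with an SE of 0.128 (adjusted p 0.00462 by edgeR). Inhba, a subunit of activin, was higher by 0.89 (SE 0.163, adjusted p 0.0143), the secretogranin Scg2 by 0.83 (SE 0.126, adjusted p 0.00674) and Ptgs2, the inducible cyclooxygenase, by 0.79 (SE 0.177, adjusted p 0.0341). Nptx1, a neuronal pentraxin that clusters AMPA receptors, stood at 225, 423 and 199 CPM under DMSO against 99.8, 181 and 103 under GSK-126. It was lower in every pair, and the block put its log2 difference at -1.12 with an SE of 0.108 (adjusted p 0.000718 by edgeR).

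Among 27 kinases, calcium sensors and channels that lead to these genes, 0 were called higher and 4 lower with the block. Of all genes tested, 2.23% were called higher and 1.42% lower. The list median was -0.14, against -0.00 over all genes. The 4 lower genes were Grin2a, a subunit of the NMDA receptor (-0.85, SE 0.186, edgeR adjusted p 0.0308), Rps6ka1, a kinase downstream of ERK (-0.76, SE 0.103, adjusted p 0.00405), Ppp3ca, a catalytic subunit of calcineurin (-0.72, SE 0.101, adjusted p 0.00461), and Camkk2, a calcium-dependent kinase (-0.45, SE 0.105, adjusted p 0.0421). Ppp3ca, the most abundant of them, was at 839, 990 and 772 CPM with DMSO and 461, 657 and 470 with GSK-126. Its groups did not overlap. With the block, genes called over all 6 lists numbered 9, and 12, 5 and 9 without replicate 1, 2 or 3. With treatment alone 0 genes of any of these lists were called by edgeR, and the lists were chosen with earlier results of these data known.

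**Figure D5:**
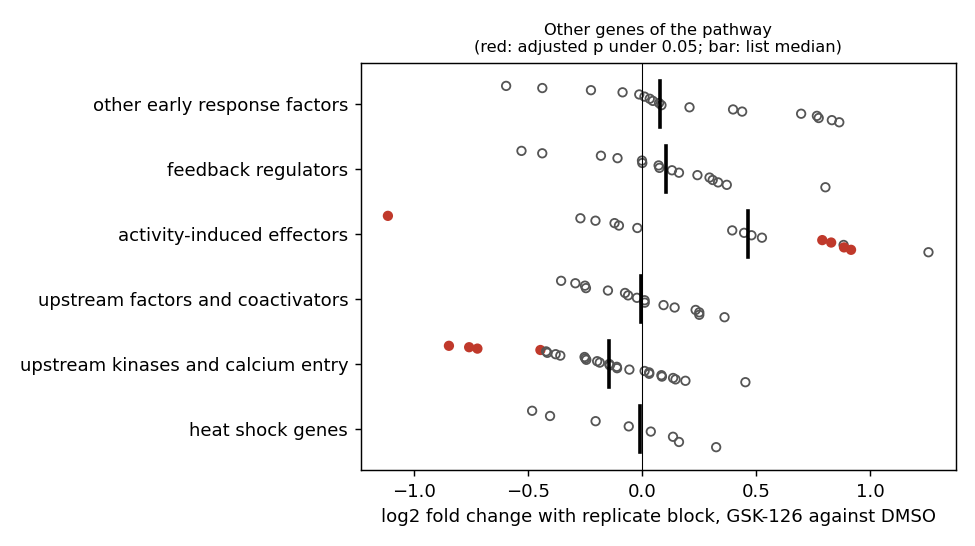
Log2 fold change with the replicate block (horizontal axis), GSK-126 against DMSO, of the tested genes in 6 lists (rows). Each circle is a gene, red where the adjusted p was under 0.05, and the black bar is the list median. Red circles are 4 higher and 1 lower effectors and 4 lower kinases, sensors and channels.

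The genes whose pattern over the 6 libraries was most like that of Egr4 were Celf4, an RNA-binding protein of neurons (Pearson r 0.995 of log2 CPM), Pde4a, a cyclic AMP phosphodiesterase (0.992), Rbm34 (0.992), Phkg2, a subunit of phosphorylase kinase (0.988), and Cdh22, a cadherin (0.987). For Fos they were Irs1, an adaptor of the insulin receptor (0.991), Zfp677 (0.988), Inhba (0.988), Zmynd19 (0.981) and Slco2a1, a prostaglandin transporter (0.980). For Egr1 they were Dnajc21 (0.982), Dhdds (0.975), Sumf2 (0.972), Trappc2l (0.967) and Chchd4 (0.967). The search covered 13253 genes with a mean of at least 5 CPM, and the libraries share treatment and culture. None of the genes named as most like Egr4, Fos or Egr1 was itself on the list of 10. Egr2, Egr3, Fosb, Npas4 and Arc had a mean below 5 CPM, so the search could not name them.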

How the data were processed

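Poly(A) RNA from 3 DMSO and 3 GSK-126 cultures had been sequenced as paired-end reads. By the study's methods the authors trimmed reads with Trimmomatic 0.38, aligned them with STAR 2.7.2b to mm10 and counted reads over exons with HTSeq. The deposited values are raw counts per gene, 1 table per library. The 5 summary rows that name no gene (no-feature reads 44.8% to 46.7%) were left out.

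Genes were filtered with filterByExpr (16343 of 55341 remained), scaled by TMM, and tested with edgeR 4.0.16 (quasi-likelihood, treatment only, Benjamini-Hochberg, threshold 0.05). DESeq2 1.42.0 and limma 3.58.1 were alternatives. The scripts were tested on simulated data. CPM use TMM factors, and ratios within pairs and deviations a prior count of 2. Coordinates and exon lengths are from GENCODE M21 (GRCm38), and promoters from RefSeq (GRCm38.p6).

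Libraries of the same replicate number deviated together across genes (r of 0.35, 0.50 and 0.52). Those of different numbers ran from -0.41 to -0.01, which taking deviations from group means partly forces, so they add no separate support. By the study's methods each replicate was a litter pool. Whether the same number in both groups shared a pool is not stated. The numbers were therefore taken as pairs, and replicate block values are given beside (365 genes higher and 232 lower).

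Text names all 10 members. From each list it names genes past the threshold with the block (at most 6) or, where there were none, the 2 of highest mean CPM. For Egr4, Fos and Egr1 it names the 5 genes of most similar pattern. The other Fos, Jun and Nr4a genes, Klf2, Maff and Csrnp1 were added after their values were seen. Members and lists were chosen with earlier results of these data known.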

Additional observations from a re-analysis of the deposited data

How the results depend on the processing

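With treatment alone 0 genes were called higher and 0 lower, and 0 of the pathway lists, also with RLE factors, limma-voom or any 1 library left out. Counts of genes higher, lower and in the pathway lists were 365, 232 and 9 with the replicate block, 46, 13 and 1 with DESeq2, 408, 266 and 12 with DESeq2 and the block, and 55, 30 and 3 with no filter. No filter with the block, chosen after seeing the data, gave 708, 428 and 25. With the block and 1 pair left out, genes higher ran from 125 to 396, lower from 53 to 308, and pathway genes from 5 to 12, each lowest without replicate 2 and highest without replicate 1 (211, 148 and 9 without replicate 3). The genes that differed between replicate numbers rose from 1890 to 3017 with no filter. The cause of these shifts was not tested. The Egr4 log2 fold change minus the median of the other members was -3.94, from -4.35 to -3.25 with 1 library left out, and -3.63 with the block and without replicate 2. The median over the 8 members was 0.01, or 0.14 with the block, and ran from -0.20 to 0.33 with 1 library left out and from -0.04 to 0.28 with the block and 1 pair left out, so that its sign changed. Leaving out 1 library, the Egr4 log2 fold change ran from -4.24 to -2.89 and that of Fos from 0.62 to 1.15. For Npas4 it ran from -0.91 to 2.08 and for Nr4a1 from -0.46 to 0.66. Of the alternative values of single members and list medians, these included, 196 stayed within the spread of replicates and 35 moved.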
